A study of Drosophila melanogaster with 4 samples.

Results

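The Hox complexes of Drosophila melanogaster are 2 gene clusters on chromosome arm 3R whose homeodomain transcription factors give each body segment its identity. The members described here are the peaks called for tagged Deformed (Dfd) protein whose midpoint lay within either of 2 windows of 3R on FlyBase release 5, at any score. The Antennapedia complex window, bases 2450000 to 2850000, held 13 peaks, and the bithorax complex window, bases 12470000 to 12820000, held 7. These 20 peaks were set against the other 502 peaks of 3R, in a list of 7683 peaks. Positions chose the members and no score was used, but the windows were chosen with earlier results of these data known.

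The peaks come from chromatin immunoprecipitation and sequencing (ChIP-seq) with a rabbit polyclonal antibody against green fluorescent protein (GFP). The labels give 2 GFP ChIP libraries and 2 input libraries, all from strain Dfd-GFP-Pacman, genotype PBac{y[+]-attP-3B}VK00037, of unknown sex, at embryonic stage 0 to 8 h. All 4 libraries thus share a transgene that carries the Dfd genomic region with GFP in place of the stop codon. The collection protocol in the labels names another fly stock and 8 to 16 h, so the stage is given as labelled. The labels do not say how far the transgene extends. Reads from it and from the Dfd locus on 3R align to the same bases, so within that extent the transgene and the resident locus cannot be told apart. Scores and pileups within that extent draw on reads from both. Whether the added copies raised them was not tested. The authors deposited 1 peak list that ties no value to a library. Replicates could not be compared, read depth is unknown, and the intervals below cover counting error among peaks of this list. Those intervals treat peaks as independent, and they are too narrow where peaks lie in groups.

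In the Antennapedia complex, labial (lab), proboscipedia (pb), Dfd, Sex combs reduced (Scr) and Antennapedia (Antp) pattern the head and anterior thorax. In the bithorax complex, Ultrabithorax (Ubx), abdominal-A (abd-A) and Abdominal-B (Abd-B) pattern the posterior thorax and abdomen. Dfd is the selector of the mandibular and maxillary segments, and it is known to keep its own gene active through an autoregulatory enhancer. Hox proteins bind short AT-rich sites, often beside cofactors such as Extradenticle, and many Hox genes are regulated by other Hox proteins. In the RefSeq table of Release 6, which was used for names and gene order only, all 8 genes matched by symbol. From lab to Antp the table lists 19 protein-coding genes. Within that order, lab is number 1, pb 10, Dfd 16, Scr 17, ftz 18 and Antp 19. The genes zen2, zen, bcd and Ama stand between pb and Dfd. From Ubx to Abd-B the table lists 6, with Ubx as number 1, abd-A as 4 and Abd-B as 6. The peak list is on release 5, and no annotation of that build was used, so no peak is assigned to a gene here, including Dfd itself. For the same reason, the window bounds were taken as given and were not checked against gene positions.

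Most peaks of the Antennapedia complex window were strong, a word used here for those in the top 10% of the whole list by score (52.26 or more). Of its 13 peaks, 9 were strong, or 69.2% (95% exact binomial interval 38.6 to 90.9%). In the bithorax complex window, 3 of 7 were strong (42.9%, interval 9.9 to 81.6%). The background was 76 of 502, or 15.1%, over the rest of 3R (interval 12.1 to 18.6%), 13.9% over the 5 large arms without the windows and 10.0% over the whole list. The interval of the Antennapedia window lay above that of the rest of 3R, and the interval of the bithorax window spanned it. In these data the score of a peak is read as the peak caller's −log10 p at its most enriched point. The median score was 85.1 in the Antennapedia window (exact interval of the median 21.21 to 215.49) and 45.12 in the bithorax window (interval 17.78 to 111.78). It was 13.8 over the rest of 3R (interval 13.4 to 14.7). Both window intervals lay above that of the rest of the arm. For the bithorax window this did not hold in every setting. Its median lay above that of the background by 31.3 in the list as deposited (interval 3.98 to 98.0), by 18.5 for the top 50% of the list (−8.80 to 85.2) and by 27.3 with peaks of 3R within 1000 bp merged (−0.085 to 93.9). No chance test was run on these differences, because peaks of 1 list are not replicates.

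**Figure D1:**
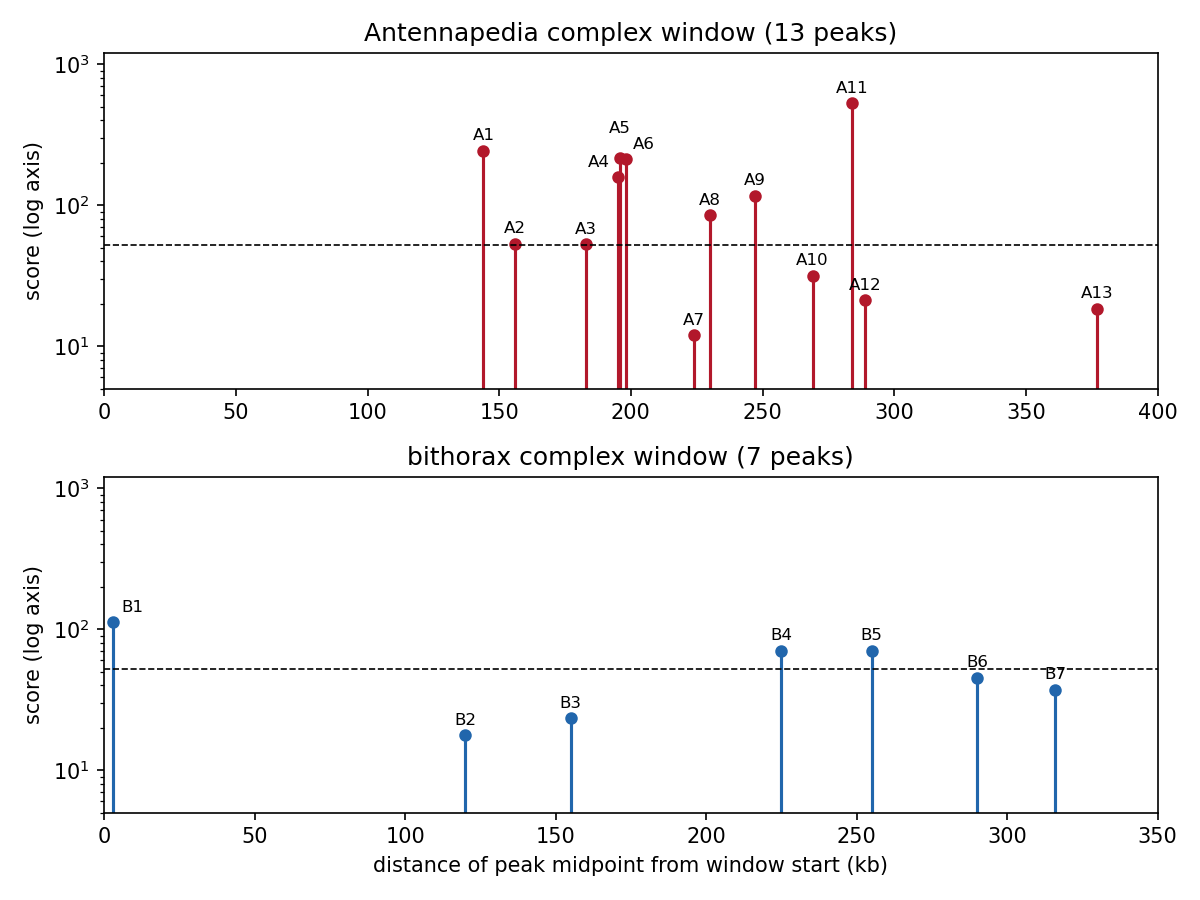
Score of each peak (log axis) against the distance of its midpoint from the start of its window in kb, for the Antennapedia complex (above, 13 peaks) and the bithorax complex (below, 7 peaks); the dashed line is the score of 52.26 that bounds the strong peaks. The first 144 kb of the Antennapedia window are without a peak and 12 of its peaks follow within 145 kb, while the bithorax peaks stand singly at least 25.9 kb apart.

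Peak by peak, the Antennapedia window opened with a long empty stretch. The last peak before the window, at bases 2244064 to 2244308, scored 10.93, and the next midpoint was 350 kb further on, 144 kb into the window. That first member, called A1 here, spanned bases 2593962 to 2594601 (640 bp) and scored 242.99, number 12 of the 522 peaks of 3R. A2, at bases 2605780 to 2606105, scored 53.26. A3, at bases 2632466 to 2632868, scored 52.78. A2 and A3 were the weakest strong members, just inside the limit of 52.26. The member nearest below that limit was in the other window, B6, at 45.12.

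A trio followed. A4 spanned bases 2644766 to 2645575 (810 bp) and scored 157.77. A5 spanned bases 2645917 to 2646544 (628 bp) and scored 215.49. A6 spanned bases 2647811 to 2648422 (612 bp) and scored 212.32. The 3 peaks filled 3.66 kb with edge-to-edge gaps of 341 and 1266 bp. Chains of at least 3 strong peaks with midpoints at most 5 kb apart were few. There were 3 such chains on the 6 chromosome arms, of which 2 were on 3R. The other chain on 3R, at bases 27899918 to 27903688, touched a run (5 or more peaks in a chain whose gaps were no longer than 2000 bp) and scored 54.56 to 64.65. The third, on 2R, held 4 peaks with scores of 111.78 to 321.08. The lowest score of the trio A4 to A6, 157.77, was above the lowest of either other chain. The chain on 2R held more strong peaks and had a higher top score than the trio.

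The next 4 members were spaced more widely and ranged from weak to strong. A7, at bases 2674344 to 2674545, was 202 bp wide and scored 11.97, the lowest score and the narrowest peak among the 20. A8, at bases 2680015 to 2680396, scored 85.1. A9, at bases 2696538 to 2696922, scored 117.0. These last 2 were strong although only 382 and 385 bp wide, close to the median width of 383 bp over the rest of 3R. A10, at bases 2718954 to 2719399, scored 31.62 and fell below the limit for strong peaks.

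The highest score on 3R belonged to A11, at bases 2733453 to 2734642. It scored 527.28, number 3 of the whole list and number 1 of the arm, where the highest score outside both windows was 501.12. At 1190 bp it was also the widest member, number 20 of 522 on the arm by width. A12, at bases 2738575 to 2738928, lay 4.7 kb from it between midpoints and scored 21.21. A stretch of 87.9 kb without a midpoint then separated A12 from A13, at bases 2826372 to 2826882, which scored 18.45. The first peak beyond the window, at bases 2866547 to 2867213, lay 16.9 kb past the edge and scored 75.81. All 9 strong members of this window therefore fell between A1 and A11, within 141 kb.

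The bithorax window had fewer peaks, and none had a close neighbour. B1, at bases 12472645 to 12473433 (789 bp), scored 111.78 and was the only one of the 7 above 100. It lay 3.04 kb inside the window's start, and the last peak before the window, at bases 12450335 to 12450706, scored 35.0. After B1 came 117 kb without a midpoint. B2, at bases 12589773 to 12590037, scored 17.78. B3, at bases 12624533 to 12624796, scored 23.38. Both were narrow, at 265 and 264 bp.

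B4 and B5 carried the same score of 70.19. B4 lay at bases 12695063 to 12695430 (368 bp) and B5 at bases 12724729 to 12725243 (515 bp). Equal scores were not rare, as 5 peaks of the list had this value, 2 of them on 3R. B6, at bases 12759955 to 12760513, scored 45.12. B7, at bases 12785967 to 12786327, scored 37.18. Beyond B7 no peak midpoint followed for 271 kb, and the first peak after the window, at bases 13057094 to 13057759, scored 82.16. The strong members of this window were B1, B4 and B5.

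Over all peaks, density gave no clear separation of the windows from the arm as the list stands. The Antennapedia window held 32.5 peaks per Mb (exact Poisson interval 17.3 to 55.6) and the bithorax window 20.0 per Mb (8.04 to 41.2), against 18.5 per Mb over the rest of 3R (16.9 to 20.2). The ratio to the rest of 3R was 1.75 for the Antennapedia window (interval 0.928 to 3.03) and 1.08 for the bithorax window (0.432 to 2.24), so neither interval excluded 1. For the Antennapedia window this depended on the setting. The ratio was 2.74 (1.44 to 4.76) with runs left out of the background. No member lay in a run and the background kept its length, so leaving runs out could only raise the ratio. The ratio was 2.59 (1.32 to 4.59) with peaks of 3R within 1000 bp merged and 3.10 (1.58 to 5.51) for the top 50% of the list. It was 2.16 (1.11 to 3.81) with the window narrowed by 50000 bp at both ends, and these 4 intervals excluded 1. Narrowing cut into the empty start of the Antennapedia window and kept 12 of its 13 peaks. Merging also left 12. The top 50% kept 12 of 13, against 262 of 502 over the rest of 3R, and so restates the higher scores. These settings are therefore not separate support for a higher density. The ratio was 1.51 (0.817 to 2.55) with windows widened by 50000 bp and 1.52 (0.81 to 2.61) with the 5 large arms as background. With the start of 3R left out of the background it was 1.83 (0.968 to 3.16). The intervals of these latter settings included 1, as in the list as deposited. For the bithorax window the ratio was 1.69 without runs, 1.73 with peaks merged, 2.07 for the top 50% and 1.08 with the window narrowed. Its interval included 1 in each case. The density of strong peaks was 22.5 per Mb in the Antennapedia window (10.3 to 42.7) and 8.57 per Mb in the bithorax window (1.77 to 25.0), against 2.80 per Mb over the rest of 3R (2.21 to 3.51). The ratio was 8.02 (interval 3.53 to 16.0) for the Antennapedia window. For the bithorax window it was 3.06, with an interval of 0.617 to 9.28 that included 1.

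**Figure D2:**
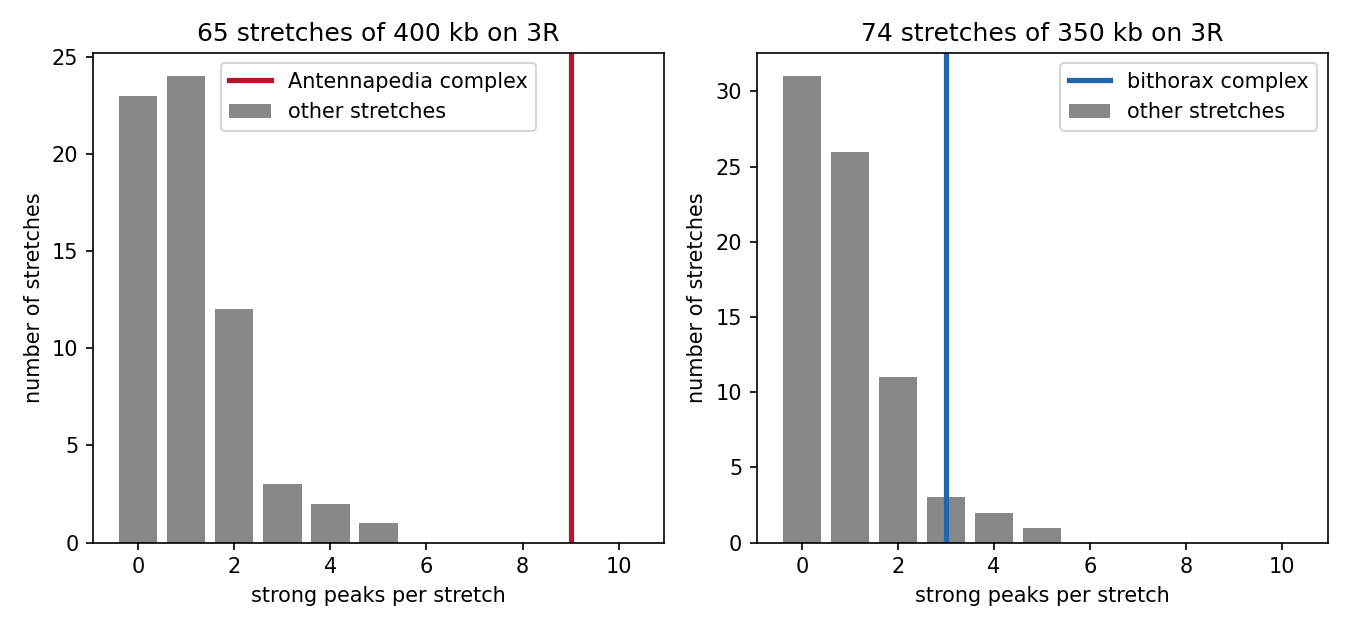
Number of strong peaks per stretch of 3R: grey bars count the stretches (65 of 400 kb on the left, 74 of 350 kb on the right), and the coloured line marks the Antennapedia complex (9 strong peaks) and the bithorax complex (3 strong peaks). No other 400-kb stretch held more than 5, and 3 other 350-kb stretches held more than 3.

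The arm was then cut into consecutive stretches of each window's length, leaving out those that touched a window, as a description of how much such stretches vary. Among 65 stretches of 400 kb, the number of strong peaks had a median of 1 and a maximum of 5, and 23 held none; the Antennapedia window held 9. It also held 6 peaks with a score of at least 100, where the stretches held at most 4 and 41 held none. For all peaks, 9 of the 65 stretches held more than the 13 of the Antennapedia window. Counting only peaks outside runs, 1 stretch held more than 13. The bithorax window ranked lower among its stretches, though still high by strong peaks. Of 74 stretches of 350 kb, 18 held more than its 7 peaks and 22 had a higher top score than its 111.78. For strong peaks, 3 stretches held more than its 3, 3 held as many and 68 held fewer. Counting only peaks outside runs, 5 held more than 7 and 62 held fewer.

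In both windows, a larger share of peaks than over the rest of 3R reached each score limit examined. The top 20% of the list held 76.9% of Antennapedia peaks and 85.7% of bithorax peaks, against 29.1% over the rest of 3R. In the Antennapedia window, 6 of 13 peaks scored at least 100 (46.2%, interval 19.2 to 74.9%). In the bithorax window the count was 1 of 7 (14.3%, interval 0.361 to 57.9%), and over the rest of 3R it was 39 of 502, or 7.77% (interval 5.58 to 10.5%). Of the 20 highest peaks of 3R, 4 were in the Antennapedia window and 0 in the bithorax window. Of the highest 50, the counts were 6 and 1. For scale, the windows held 13 and 7 of all 522 peaks of 3R. The bithorax counts were close to that window's share of the arm's peaks. The list's median score of 13.7 was reached by 12 of 13 Antennapedia peaks, A7 being the exception, and by 7 of 7 bithorax peaks, against 262 of 502 (52.2%) over the rest of 3R.

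**Figure D3:**
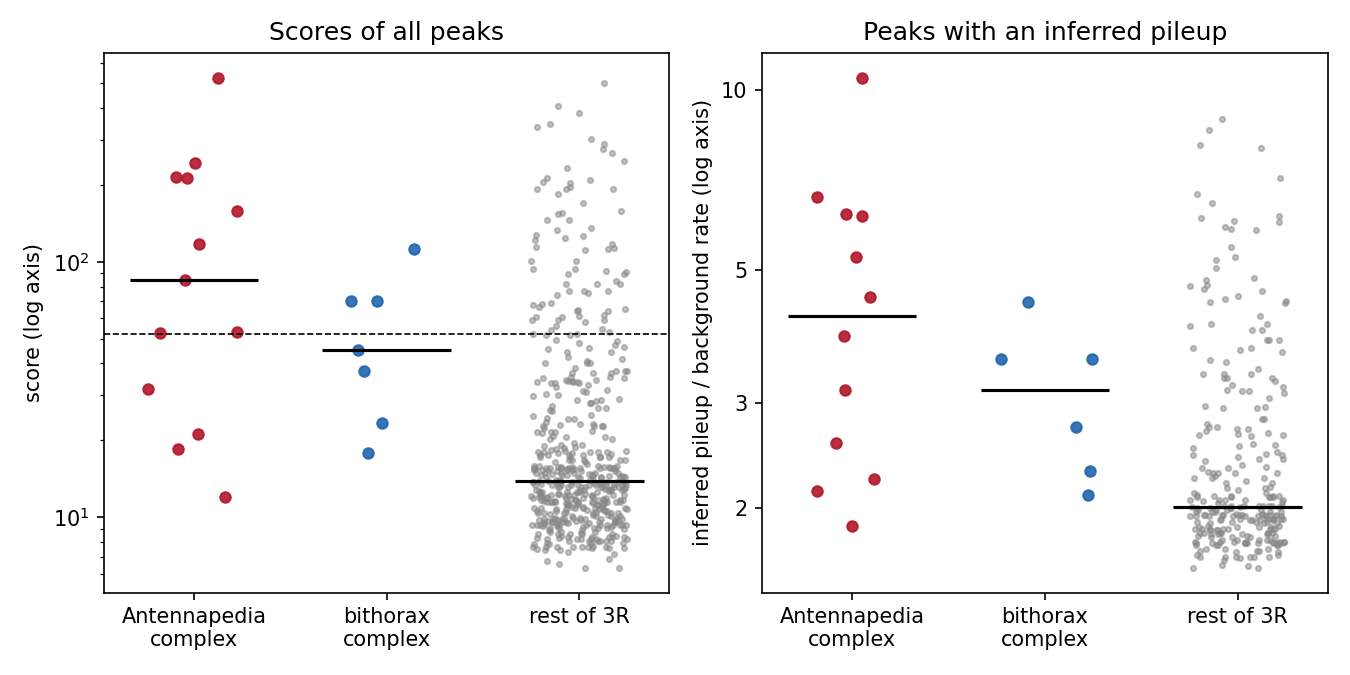
Left, scores of all peaks (log axis) in the Antennapedia complex (13), the bithorax complex (7) and the rest of 3R (502), with the strong limit of 52.26 dashed. Right, inferred pileup as a multiple of the background rate (log axis) for the 12, 6 and 274 peaks that have one; black bars are medians, 4.2, 3.15 and 2.01 on the right.

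For most members a pileup and its fold over background were inferred. Each score was matched, to 2 decimals, to −log10 of the probability that a Poisson count exceeds some pileup. A single background rate of 80.0565 fragments matched 4579 of 7683 scores (59.6%), while other rates within 20 of it matched a median of 239 (3.11%). The rate and the pileups are inferred and are not stated by the authors, and a match to some pileups can arise by chance. Members matched in 18 of 20 cases, against 274 of 502 peaks (54.6%) over the rest of 3R. Among strong peaks alone the counts were 11 of 12 in the windows and 57 of 76 (75.0%) over the rest of the arm. Only A3 and B6 had no match, and no fold is given for them.

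The inferred pileups put the members on a plainer scale than the score. Each pileup is computed from the score at a single rate, so it keeps the order of the scores. It is not a separate measurement. A11 reached 837 fragments, 10.5-fold over the rate, and the highest matched peak over the rest of 3R reached 8.94-fold at a score of 407.83. The highest peak outside the windows, at 501.12, had no match, so 8.94-fold is not the maximum of the rest of the arm. A1 reached 531 fragments (6.63-fold). The trio was alike, with 421 fragments for A4 (5.26-fold), 497 for A5 (6.21-fold) and 493 for A6 (6.16-fold). A9 stood at 4.52-fold, A8 at 3.88-fold and A2 at 3.16-fold. The weak members A10, A12, A13 and A7 lay between 2.57-fold and 1.87-fold. In the bithorax window the range was narrower. B1 reached 354 fragments (4.42-fold), and B4 and B5 reached 285 each (3.56-fold). B7, B3 and B2 stood at 2.74-fold, 2.31-fold and 2.11-fold. A ratio of at least 5 was found in 5 of 12 matched Antennapedia peaks and 0 of 6 matched bithorax peaks, against 18 of 274 (6.57%) over the rest of 3R. The medians over matched peaks were 4.2-fold, 3.15-fold and 2.01-fold.

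Bithorax peaks were spaced more widely than Antennapedia peaks. A peak was called isolated when no other midpoint lay within 5 kb. In the Antennapedia window 8 of 13 peaks were isolated (61.5%, interval 31.6 to 86.1%), the exceptions being the trio A4 to A6 and the pair A11 and A12. In the bithorax window 7 of 7 were isolated (interval 59.0 to 100%), and the background over the rest of 3R was 192 of 502, or 38.2% (interval 34.0 to 42.7%). With peaks in runs left out, that background was 192 of 321, or 59.8%, close to the share of the Antennapedia window. None of the 20 members lay in a run. A count of 0 of 20 allows a share of up to 15%, by a floor of 3 counts, and runs held 181 of 502 peaks (36.1%) over the rest of 3R. The median distance between neighbouring midpoints was 13.7 kb in the Antennapedia window and 35.0 kb in the bithorax window, against 8.39 kb over the rest of 3R. When peaks up to 30 kb apart were linked, 12 of the 13 Antennapedia peaks formed 1 group over 145 kb, whereas the 7 bithorax peaks formed 5 groups of at most 2. The longest distances between neighbouring members of a window were common lengths for this arm. They leave out the empty first 144 kb of the Antennapedia window, part of a longer stretch of 350 kb without a midpoint. Distances of at least 87.9 kb made up 20.6% of those over the rest of 3R, and distances of at least 117 kb made up 16.8%.

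Since neither window held a run, the comparison of scores was repeated without runs. With these left out, 72 of 321 peaks (22.4%, interval 18.0 to 27.4%) over the rest of 3R were strong, with a median score of 15.22. Among isolated peaks only, strong ones made up 5 of 8 in the Antennapedia window (62.5%, interval 24.5 to 91.5%) and 3 of 7 in the bithorax window (42.9%, interval 9.9 to 81.6%), against 60 of 192 over the rest of 3R (31.2%, interval 24.8 to 38.3%). At like isolation, the intervals of both windows overlapped that of the rest of the arm. Of the 9 strong Antennapedia peaks, 4 were not isolated, namely the trio and A11.

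**Figure D4:**
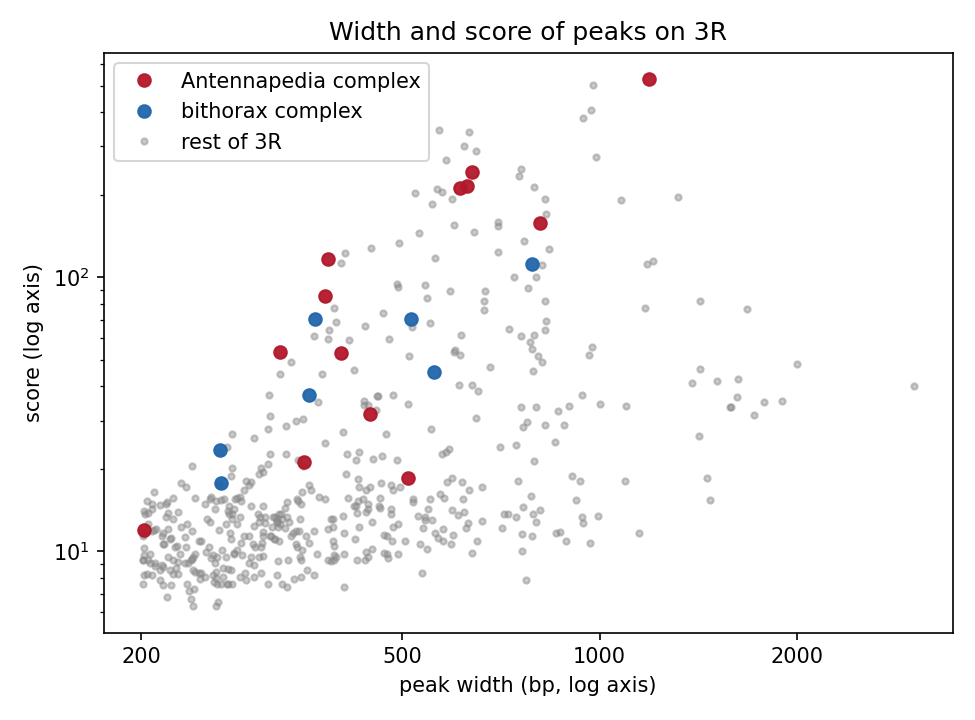
Score against peak width in bp (both axes log) for peaks on 3R: Antennapedia complex (red, 13), bithorax complex (blue, 7) and the rest of 3R (grey, 502). A11 stands at the top at 1190 bp and 527.28.

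Members were not set apart by width. The median width was 446 bp in the Antennapedia window (interval 354 to 640 bp) and 368 bp in the bithorax window (264 to 789 bp), against 383 bp over the rest of 3R (349 to 411 bp). Score and width went together among the 20 members (Spearman's rho = 0.77 across peaks, a description) and among the 502 others (rho = 0.60). Both quantities come from the peak caller. Peaks covered 6889 bp, or 1.72%, of the Antennapedia window and 3121 bp, or 0.892%, of the bithorax window, against 0.899% over the rest of 3R.

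Set against each other, the windows differed in the direction of more and stronger peaks in the Antennapedia complex, within wide limits. The Antennapedia window had 1.63 times the peak density of the bithorax window (interval 0.603 to 4.81) and 2.63 times its density of strong peaks (interval 0.655 to 15.1). Both intervals include 1. The median score was higher by 39.98, with intervals of the medians that overlapped. With 13 and 7 peaks, a difference between the complexes was not resolved by counting alone. The bithorax window held no member above B1's 111.78, and 6 Antennapedia members, A1, A4, A5, A6, A9 and A11, scored above it.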

How the data were processed

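The 4 libraries are 2 GFP ChIP and 2 input libraries. The submitters' processing notes list MACS2, BWA and CASAVA (versions 1.7.0.3 and 1.7.0.2) and the build BDGP5, without roles or settings; how replicates were combined and which threshold was applied is not given in the sources used here. Positions are on FlyBase release 5, per the file headers. The deposited score has no stated unit and was read from its values as −log10 p. To infer pileups, background rates from 20 to 400 were searched in steps of 0.01 and then 0.0005 round the best. The Poisson tail was summed on a log scale. Over a narrower range of rates, the search recovered 2 of 2 known rates in simulated lists, in which part of the scores shared the known rate. P(X > k) was used; P(X ≥ k) would add 1 fragment. Binomial (Clopper-Pearson), Poisson and median intervals (order statistics) are exact, at 95%. The density of the rest of 3R used the length between the outermost peaks of the arm less both windows. No test was run between libraries. Every member is described. Members, windows and limits were chosen with earlier results of these data known. Python 3.11.15, numpy 2.4.6, pandas 2.3.3, scipy 1.17.1 and matplotlib 3.10.9 were used.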

Additional observations from a re-analysis of the deposited data

How the results depend on the processing

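Of 57 comparisons with an alternative setting that could move the value, 56 kept it inside its 95% interval (for counts, within 1.5 times), and 1 did not; these intervals are wide at 13 and 7 peaks. Another 6, the numbers of peaks under a change of background, could not move by construction. With the list limited to the top 50% by score, the peak density of the Antennapedia window was 3.10 times that of the rest of 3R, against 1.75, since fewer weak peaks were left on the arm. Its interval excluded 1 there, with peaks merged (2.59), without runs (2.74) and with narrowed windows (2.16). In these settings the window kept 12 or 13 of its 13 peaks, so they are not separate support for a higher density. The interval included 1 with widened windows (1.51), with the 5 large arms as background (1.52) and with the start of 3R left out of the background (1.83). The density ratio of the bithorax window fell below 1 with the windows widened by 50000 bp (0.956) and with the 5 large arms as background (0.938), and stood at 2.07 for the top 50%, 1.73 with peaks merged and 1.69 without runs, against 1.08. Its median score lay above the background by 18.5 for the top 50% and 27.3 with peaks merged, with intervals that reached below 0. Its excess of strong peaks over the rest of 3R depended on the limit, at 5.72 percentage points for the top 5% of the list and 56.6 for the top 20%, against 27.7 for the top 10%. The excess of the Antennapedia window lay at 37.6 and 47.8 points for those limits, against 54.1. Searching the background rate in steps of 0.01, an alternative added after seeing the data, gave a pileup for 12 members in place of 18. No paired analysis was possible because each peak has 1 value and no library is named; leaving out each replicate was not run for the same reason. Sequences and motifs were not analysed here. Read depth is unknown.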
